A study of Homo sapiens with 15 samples.

Results

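The genes described are 10 members of the PDGF, VEGF and FGF growth factor pathways: PDGFA, PDGFB and PDGFC, VEGFA and VEGFC, FGF2 and its carrier FGFBP1, and the receptors FGFR1, FGFR2 and FGFR3. They were taken by gene symbol from tables of 12995 genes, in which all 10 were present, and each is described in all 15 libraries. A further 60 genes of the same pathways, out of 89 listed, had values and are given by counts and examples.

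PDGF ligands are secreted dimers that activate receptor tyrosine kinases found mainly on mesenchymal cells. VEGFA acts on the vascular receptors FLT1 and KDR, and VEGFC is the main ligand of the lymphatic receptor FLT4. FGF2 binds FGF receptors together with heparan sulphate, and FGFBP1 is a secreted protein that frees FGF2 from the matrix. All of these receptors signal through the RAS and PI3K routes, and epithelial tumours use the ligands both on themselves and on the stroma around them.

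The libraries came from human oral cell lines grown in culture, with 3 libraries in each of 5 groups. OKF6 is a normal oral epithelial line. SCC15 and SCC25 are oral cancer lines that the study classed as mesenchymal-like and basal-like. Both cancer lines carried Cas9 with an mCherry reporter and a doxycycline-inducible guide RNA construct against YBX1 with GFP, and cells sorted for both reporters were expanded. SCC25 +YBX1 and SCC15 +YBX1 received no doxycycline, whereas SCC25 –YBX1 and SCC15 –YBX1 received 1 µg/ml for 3 days to delete YBX1, a cold shock domain protein that binds RNA and the Y box of promoters. The labels name no construct for OKF6, and no group received doxycycline without the guide, so the drug and the loss of YBX1 cannot be told apart. SCC25 and OKF6 were cultured in serum-free keratinocyte medium with EGF and pituitary extract and SCC15 in DMEM with serum, so line and medium cannot be told apart. The 3 replicates of a group are not said to be separate cultures, so the p-values measure the spread between these libraries alone. Beyond the 10 members, these cultures had none of 8 endothelial markers among the genes tested, 2 of 8 fibroblast markers (COL1A1 and LUM) and 3 of 8 immune markers (CD14, CD68 and CD74). All 10 epithelial markers were present, with a summed level of 26165 to 35806 CPM (counts scaled to a common library size) in OKF6 and 9977 to 21845 CPM in SCC25 +YBX1. In SCC15 +YBX1 the same 10 markers summed to 92.2 to 128 CPM, below every library of the other lines. In such bulk RNA, fewer cells that express a gene and less of its RNA per cell cannot be told apart.

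RefSeq promoter sequences were at hand for 6 of the 10 members. The 250 bases before the start of FGFBP1, VEGFC and FGFR3 are shown, since FGFBP1 and VEGFC were the members furthest below SCC25 in SCC15 and FGFR3 was the member that was higher there. All are on chromosome 4 of GRCh38.p14. FGFBP1 lies at chr4:15938741-15938990 (minus strand), VEGFC at chr4:176792923-176793172 (minus strand) and FGFR3 at chr4:1793043-1793292 (plus strand). Capitals mark a Y-box core (CCAAT or its reverse ATTGG) or a GC box (GGGCGG or its reverse CCGCCC).

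FGFBP1: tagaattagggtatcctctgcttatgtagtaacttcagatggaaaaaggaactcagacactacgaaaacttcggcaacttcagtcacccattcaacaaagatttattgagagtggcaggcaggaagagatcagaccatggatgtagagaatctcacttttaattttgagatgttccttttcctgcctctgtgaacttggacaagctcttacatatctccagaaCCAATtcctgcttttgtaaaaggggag
VEGFC: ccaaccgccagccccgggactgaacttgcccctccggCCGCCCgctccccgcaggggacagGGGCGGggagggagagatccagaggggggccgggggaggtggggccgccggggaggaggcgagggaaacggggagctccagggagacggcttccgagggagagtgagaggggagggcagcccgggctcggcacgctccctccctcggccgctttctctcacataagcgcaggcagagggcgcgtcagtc
FGFR3: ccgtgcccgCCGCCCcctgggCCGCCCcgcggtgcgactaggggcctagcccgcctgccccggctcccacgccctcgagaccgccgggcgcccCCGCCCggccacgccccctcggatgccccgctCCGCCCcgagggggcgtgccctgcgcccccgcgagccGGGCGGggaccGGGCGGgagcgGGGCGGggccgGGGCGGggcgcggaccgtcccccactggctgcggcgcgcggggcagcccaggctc

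The FGFBP1 promoter held a single Y-box core, 27 bases before the start, and no GC box, with a GC content of 40.8%. VEGFC held 2 GC boxes in a stretch of 74% GC, and FGFR3 held 8 GC boxes in 86.8% GC, and neither held a Y-box core. The median over 35116 human promoters was 58% GC. Among those, 32% held a Y-box core and 42.6% a GC box. FGF2 held a GC box and no Y-box core. PDGFA has 4 starts in the table, of which 4 held a GC box and 1 a Y-box core, and FGFR2 has 5, of which 2 held a GC box and 3 a Y-box core. TATAAA, found in 10.7% of all promoters, and the AP-1 motif TGANTCA, found in 6.57%, were in none of the 13 promoters of these 6 members. A match of letters is a description of the sequence and was not tested as a binding site.

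Values are log2 CPM, in which 0.5 reads were added to each count. A read corresponds to 0.138 to 0.226 CPM, and libraries held 4075290 to 6118501 counted reads. The levels in every library are shown in the plot of the 10 members by group.

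**Figure D1:**
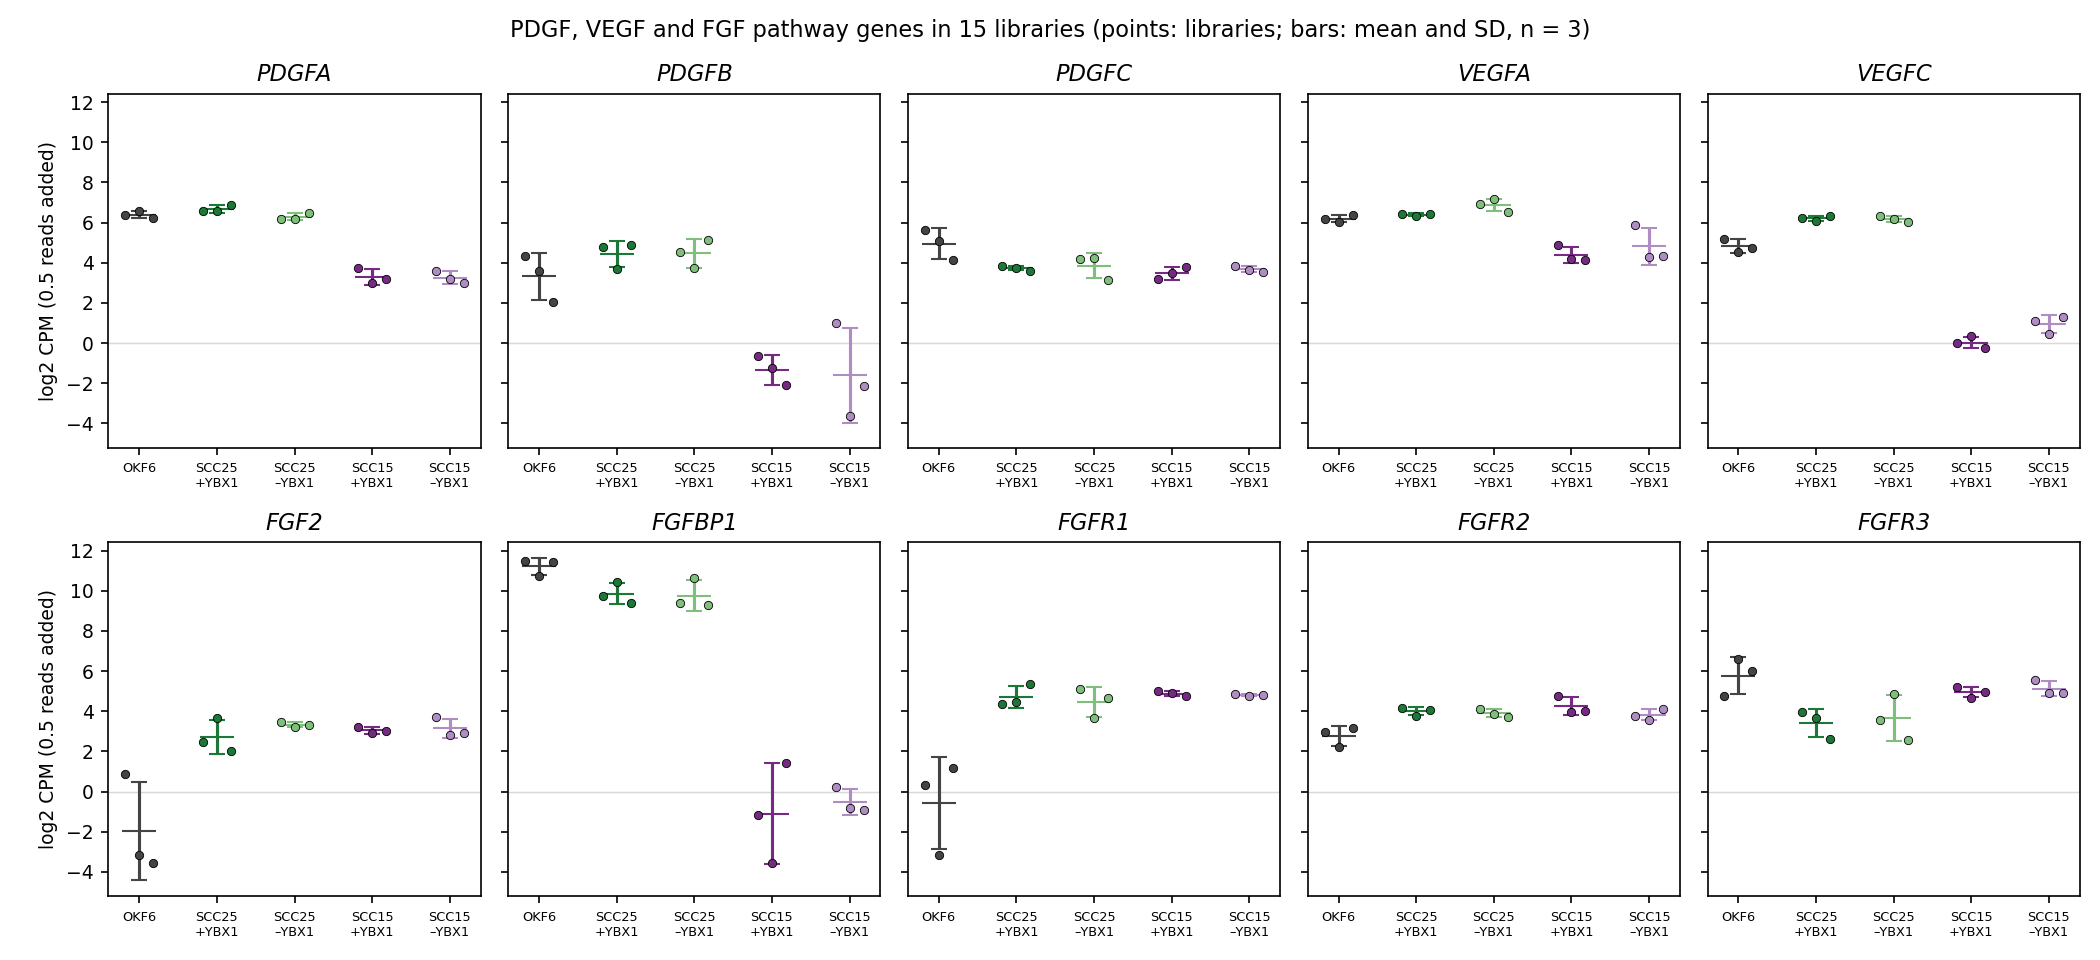
Level of each of the 10 genes (log2 CPM, vertical axis) in OKF6, SCC25 and SCC15 with and without YBX1; points are libraries and bars the mean and SD of 3. FGFBP1, VEGFC, PDGFA, PDGFB and VEGFA sit lower in both SCC15 groups, and FGF2 and FGFR1 sit lower in OKF6 than in the cancer lines.

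The comparison of SCC15 +YBX1 with SCC25 +YBX1 asks how growth factor genes differ between a mesenchymal-like and a basal-like line. Of the 10 members, 5 were lower in SCC15 (FGFBP1, VEGFC, PDGFB, PDGFA and VEGFA) and 1 was higher (FGFR3) by the limma test (adjusted p under 0.05, Benjamini-Hochberg over all 12995 genes). Among all genes, 23.6% were lower and 20.0% higher by the same rule. FGF2, FGFR1, FGFR2 and PDGFC did not pass. Against OKF6, SCC15 +YBX1 was lower in 6 members (the same 5 and PDGFC) and higher in 3 (FGF2, FGFR1 and FGFR2), where 23.4% of all genes were lower and 26.9% higher. SCC25 +YBX1 was higher than OKF6 in 4 members (FGF2, FGFR1, FGFR2 and VEGFC) and lower in 2 (PDGFC and FGFR3), where 18.9% of all genes were higher and 11.3% lower. The 3 comparisons share libraries with each other, so their values are given side by side and not as independent results. The median log2 change over the members was -1.13 for SCC15 against SCC25, -1.64 for SCC15 against OKF6 and 0.71 for SCC25 against OKF6, beside -0.01, 0.10 and 0.13 over all genes. As the members were chosen with earlier results of these data known, these counts and medians are a description. Setting the library medians equal raised the median of all genes by 0.15 and 0.16 in the comparisons that involve SCC15, and no call of a member changed with it.

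**Figure D2:**
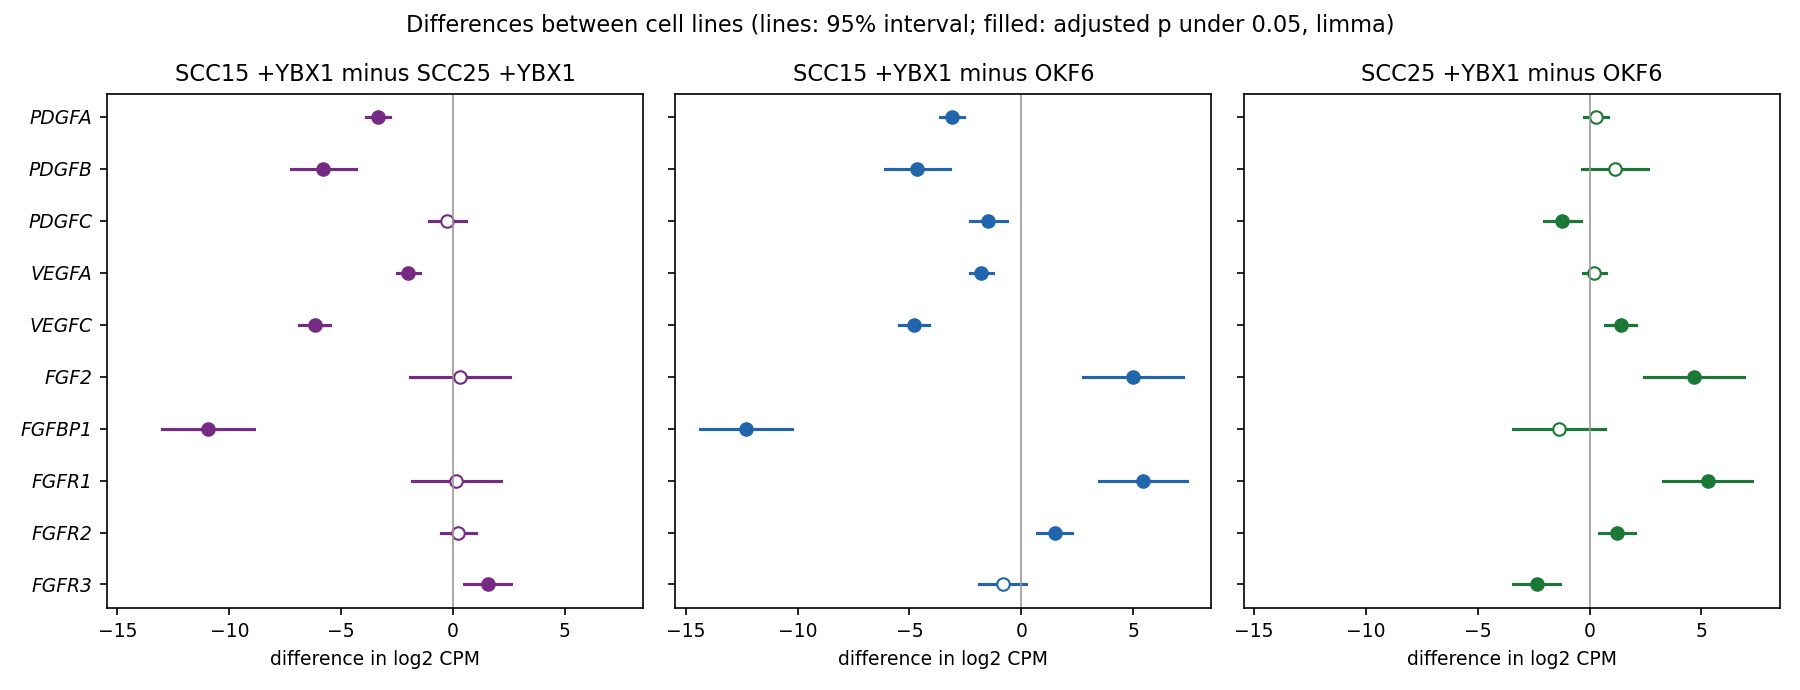
Difference in log2 CPM (horizontal axis) between cell lines for each gene, with its 95% interval; filled points have an adjusted p under 0.05. In the SCC15 against SCC25 panel FGFBP1 (-10.95), VEGFC (-6.18) and PDGFB (-5.80) lie furthest to the left and FGFR3 (1.54) to the right.

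PDGFA encodes the A chain of PDGF (chromosome 7, 497258 to 520296, minus strand, hg38). Its log2 CPM was 6.38, 6.59 and 6.23 in OKF6, 6.57, 6.58 and 6.90 in SCC25 +YBX1 and 3.76, 3.00 and 3.17 in SCC15 +YBX1. Every SCC15 library was therefore below every library of the other lines. The level in SCC15 was 10.4-fold below SCC25 (log2 change -3.37, SE 0.24, adjusted p = 1.42e-06, limma). It was 8.53-fold below OKF6 (adjusted p = 1.91e-06, limma), and SCC25 and OKF6 were not told apart, at a difference of 0.28 (95% interval -0.25 to 0.81).

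PDGFB, the B chain (chromosome 22, 39223359 to 39244982, minus strand), had 3, 2 and 1 reads in SCC15 +YBX1 against 145, 66 and 143 in SCC25 +YBX1 and 105, 53 and 24 in OKF6. SCC15 was thus at the floor of 3 reads in each library. Over the summed reads, the level in SCC25 was 69.5 times that in SCC15, with a counting interval of 31.6 to 191. For OKF6 the ratio to SCC15 was 34.9 (15.7 to 96.3). These intervals cover counting error only. The fitted log2 change was -5.80 against SCC25 (SE 0.66, adjusted p = 3.92e-05, limma), or -5.09 with 2 reads added in place of 0.5, and -4.66 against OKF6 (SE 0.66, adjusted p = 0.000148, limma), which became -3.98 with 2 reads added and -5.30 without OKF6 replicate 3.

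PDGFC encodes a latent ligand that proteases must cut before it binds its receptor (chromosome 4, 156760454 to 156971799, minus strand). Unlike the other PDGF genes it did not pass between the cancer lines, at 3.17, 3.47 and 3.78 log2 CPM in SCC15 +YBX1 and 3.83, 3.75 and 3.60 in SCC25 +YBX1, a difference of -0.25 (95% interval -1.08 to 0.57). In OKF6 it read 5.63, 5.09 and 4.15, above every SCC15 and SCC25 +YBX1 library. PDGFC was 2.80-fold lower in SCC15 than in OKF6 (adjusted p = 0.00683, limma) and 2.35-fold lower in SCC25 (adjusted p = 0.0304, limma). The latter call was lost when the fit held SCC25 and OKF6 alone (adjusted p = 0.0600, limma) and without OKF6 replicate 1 or 2 or any SCC25 library, with changes from -1.28 to -0.90.

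VEGFA, the main growth factor of blood vessels (chromosome 6, 43770184 to 43786487, plus strand), read 6.16, 6.02 and 6.38 log2 CPM in OKF6, 6.43, 6.31 and 6.44 in SCC25 +YBX1 and 4.87, 4.19 and 4.13 in SCC15 +YBX1. The level in SCC15 was 0.250 times that in SCC25 (SE 0.23 on the log2 scale, adjusted p = 4.47e-05, limma) and 3.45-fold below OKF6 (adjusted p = 7.69e-05, limma). SCC25 and OKF6 overlapped, at a difference of 0.21 (95% interval -0.30 to 0.72).

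VEGFC, the growth factor of lymphatic vessels (chromosome 4, 176683538 to 176792922, minus strand), separated all 3 lines. It read 6.22, 6.08 and 6.34 log2 CPM in SCC25 +YBX1, 5.21, 4.53 and 4.74 in OKF6 and 0.00, 0.34 and -0.24 in SCC15 +YBX1, where it rested on 5, 7 and 5 reads. The libraries of no line overlapped those of another. VEGFC was 72.6-fold lower in SCC15 than in SCC25 (log2 change -6.18, SE 0.31, adjusted p = 1.91e-07, limma), or -6.90 with quantiles set equal. Against OKF6 it was 27.7-fold lower (log2 change -4.79, adjusted p = 6.07e-07, limma), or -5.56 with quantiles set equal. It was 2.62-fold higher in SCC25 than in OKF6 (adjusted p = 0.00715, limma).

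FGFBP1 (chromosome 4, 15935577 to 15938740, minus strand) spanned the widest range of the members. It read 11.47, 10.74 and 11.44 log2 CPM in OKF6 and 9.75, 10.44 and 9.39 in SCC25 +YBX1, but had 2, 0 and 17 reads in SCC15 +YBX1. The ratio of summed reads was 922 for SCC25 over SCC15 (counting interval 590 to 1532) and 2356 for OKF6 over SCC15 (1508 to 3913). The fitted log2 change was -10.95 against SCC25 (SE 0.93, adjusted p = 4.91e-06, limma) and -12.31 against OKF6 (SE 0.93, adjusted p = 1.58e-06, limma). It depended on how few reads were seen. With 2 reads added the values were -10.02 and -11.38, without SCC15 +YBX1 replicate 2 they were -9.71 and -11.07, and without SCC15 +YBX1 replicate 3 they were -12.21 and -13.57.

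The keratin KRT6A moved with the few FGFBP1 reads among the SCC15 +YBX1 libraries, at 2.03, -3.57 and 3.54 log2 CPM where FGFBP1 read -1.14, -3.57 and 1.43. Replicate 3 was highest and replicate 2, without a read of either gene, lowest. Not every epithelial marker followed that order. KRT5 did (15, 2 and 53 reads), whereas EPCAM (6, 10 and 5 reads) and DSP (608, 513 and 531 reads) did not. All 10 epithelial markers were lower in SCC15 than in SCC25, with a median log2 change of -9.71, and all 10 were lower than in OKF6, with a median of -10.15. Their part in the FGFBP1 difference was not tested. FGFBP1 in SCC25 was below OKF6 in every library, and the difference of -1.36 did not pass (adjusted p = 0.299, limma). It passed when only those lines were fitted (adjusted p = 0.0320, limma) and with voom weights on the recovered reads (adjusted p = 0.0201, limma).

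FGF2 (chromosome 4, 122826682 to 122898236, plus strand) was the member with the fewest reads in OKF6 and was present in both cancer lines. OKF6 had 9, 0 and 0 reads, while SCC15 +YBX1 read 3.23, 2.91 and 3.02 log2 CPM and SCC25 +YBX1 read 2.47, 3.69 and 2.02. Both cancer lines lay wholly above OKF6. From the summed reads the level was 14.2 times higher in SCC15 than in OKF6 (counting interval 7.28 to 31.7) and 12.9 times higher in SCC25 (6.54 to 28.9). The fitted log2 changes were 5.00 (SE 1.01, adjusted p = 0.00180, limma) and 4.68 (SE 1.01, adjusted p = 0.00599, limma). They were 3.64 and 3.34 with 2 reads added, 4.20 and 3.79 with quantiles set equal, and ran from 4.19 to 6.41 and from 3.87 to 6.09 when an OKF6 library was left out. SCC15 and SCC25 overlapped, at a difference of 0.32 (95% interval -1.91 to 2.56). This interval too uses a spread shared with OKF6, where the SD was 2.45, against 0.16 in SCC15 +YBX1 and 0.86 in SCC25 +YBX1. With only the compared lines in the fit the adjusted p was 0.530 (limma).

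FGFR1, the receptor of the family typical of mesenchymal cells (chromosome 8, 38400215 to 38468834, minus strand) and a receptor of FGF2, likewise had few reads in OKF6. It had 6, 0 and 13 reads in OKF6, and read 4.99, 4.91 and 4.75 log2 CPM in SCC15 +YBX1 and 4.35, 4.48 and 5.36 in SCC25 +YBX1. From the summed reads the level was 24.1 times higher in SCC15 than in OKF6 (15 to 40) and 22.5 times higher in SCC25 (14 to 38). The fitted log2 changes were 5.43 (SE 0.89, adjusted p = 0.000454, limma) and 5.28 (SE 0.89, adjusted p = 0.00157, limma), which were 4.63 and 4.48 with 2 reads added. Without OKF6 replicate 2, which had no FGFR1 read, they were 4.13 and 3.98, and without OKF6 replicate 3 they were 6.3 and 6.15. Quantile normalization gave 4.61 for SCC25. SCC15 and SCC25 were not told apart, at a difference of 0.15 (95% interval -1.83 to 2.13). The width of this interval comes from a spread shared with OKF6. The SD was 2.29 in OKF6, 0.12 in SCC15 +YBX1 and 0.55 in SCC25 +YBX1. With only the compared lines in the fit the difference did not pass either (adjusted p = 0.640, limma).

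FGFR2, whose epithelial and mesenchymal splice forms bind different FGFs (chromosome 10, 121478332 to 121598458, minus strand), read 2.96, 2.21 and 3.15 log2 CPM in OKF6, 4.18, 3.78 and 4.08 in SCC25 +YBX1 and 4.77, 3.99 and 4.01 in SCC15 +YBX1. Every library of a cancer line was above every OKF6 library. FGFR2 was 2.80-fold higher in SCC15 than in OKF6 (adjusted p = 0.00554, limma) and 2.37-fold higher in SCC25 (adjusted p = 0.0248, limma). The SCC25 call was lost with only those lines in the fit (adjusted p = 0.0579, limma) and without OKF6 replicate 2 or any SCC25 library, with changes from 0.96 to 1.36. Reads at the 3′ end do not tell the splice forms apart.

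FGFR3, a receptor of stratified epithelia (chromosome 4, 1793293 to 1808872, plus strand), was lowest in SCC25. It read 4.76, 6.59 and 6.00 log2 CPM in OKF6, 5.22, 4.68 and 4.98 in SCC15 +YBX1 and 3.95, 3.69 and 2.62 in SCC25 +YBX1. SCC25 lay below every library of the other lines, while SCC15 and OKF6 overlapped. FGFR3 was 5.15-fold lower in SCC25 than in OKF6 (SE 0.47 on the log2 scale, adjusted p = 0.00392, limma). It was 2.91-fold higher in SCC15 than in SCC25 (adjusted p = 0.0220, limma), a call that was lost without SCC15 +YBX1 replicate 1 (adjusted p = 0.0781, limma), SCC15 +YBX1 replicate 3 (0.0598) or SCC25 +YBX1 replicate 3 (0.0914). SCC15 differed from OKF6 by -0.82 (adjusted p = 0.171, limma), which became -1.34 without OKF6 replicate 1 and then passed (adjusted p = 0.0128, limma).

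Ratios between members of a family within a library do not change with the scaling of the library. As genes differ in how well they are captured, such a ratio is read across groups and not against 0. The log2 ratio of FGFR1 to FGFR3 was -6.33 ± 2.96 in OKF6, -0.08 ± 0.26 in SCC15 +YBX1 and 1.31 ± 1.26 in SCC25 +YBX1 (SD, n = 3), so that this ratio set OKF6 apart from both cancer lines. The ratio of FGFR1 to FGFR2 was -3.32 ± 1.80 in OKF6 but 0.63 ± 0.36 in SCC15 +YBX1 and 0.72 ± 0.55 in SCC25 +YBX1 (SD, n = 3). The OKF6 ratios rest on 19 FGFR1 reads in all.

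The ratio of PDGFC to PDGFA was 0.16 ± 0.66 in SCC15 +YBX1, -1.44 ± 0.67 in OKF6 and -2.96 ± 0.30 in SCC25 +YBX1 (SD, n = 3), without overlap between lines. That of VEGFC to VEGFA was -4.36 ± 0.51 in SCC15 +YBX1, -1.36 ± 0.36 in OKF6 and -0.18 ± 0.07 in SCC25 +YBX1 (SD, n = 3). The SCC15 +YBX1 value rests on 17 VEGFC reads in all. After knockdown in SCC25 the VEGFC to VEGFA ratio was -0.70 ± 0.24 (SD, n = 3), below the 3 libraries before it. Over the 15 libraries the SD of log2 CPM was 2.74 for VEGFC and 1.07 for VEGFA, and 1.63 for PDGFA and 0.67 for PDGFC. The ratio of PDGFA to PDGFB was 4.65 ± 0.56 in SCC15 +YBX1, 3.08 ± 1.07 in OKF6 and 2.22 ± 0.57 in SCC25 +YBX1 (SD, n = 3), with the last pair overlapping. The SCC15 +YBX1 value rests on 6 PDGFB reads in all and so depends on the 0.5 reads added. Its lowest library, at 4.25, lay just above OKF6 replicate 3, at 4.19. Each ratio whose groups did not overlap had an exact two-sided permutation p = 0.1, the smallest that 3 libraries against 3 can give, or 0.179 after adjustment over 25 tests.

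The knockdown of YBX1 was read first from YBX1 itself. YBX1 read 6.74, 6.31 and 6.62 log2 CPM in SCC25 +YBX1 and 5.26, 4.70 and 3.65 in SCC25 –YBX1, and 5.11, 5.56 and 6.00 in SCC15 +YBX1 and 3.36, 3.71 and 3.13 in SCC15 –YBX1. It was lower after doxycycline in 6 of 6 same-numbered pairs, by 4.03-fold in SCC25 and 4.45-fold in SCC15. Neither difference passed after adjustment over all genes (adjusted p = 0.290 and 0.326, limma, from unadjusted 4.97e-05 and 2.51e-05). These 3′ reads measure the RNA level and do not report on the edit itself.

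None of the 10 members passed in either line, nor in the difference between the lines' responses. The same holds for all genes, of which 0.00% passed in SCC25, 0.00% in SCC15 and 0.00% in the difference of responses, and voom weights on the recovered reads also called 0. At an unadjusted p under 0.05 stood 0 members in SCC25, 1 in SCC15 and 1 in the difference, both VEGFC, beside 3.09%, 2.32% and 2.26% of all genes. Intervals of the responses are from the fit without the replicate block, with a spread shared by both lines. For PDGFA the SCC25 interval lay between -0.89 and 0.12, whereas for PDGFB in SCC15, with 3, 2 and 1 reads before and 14, 0 and 1 after, it lay between -2.18 and 1.66.

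VEGFA was the member that was higher without YBX1 in 6 of 6 same-numbered pairs, which 1.47% of all genes were (1.75% were lower in 6 of 6). It read 6.91, 7.17 and 6.54 in SCC25 –YBX1, above all 3 SCC25 +YBX1 libraries, with a log2 change of 0.48 (95% interval -0.29 to 1.25, adjusted p = 1.00, limma). In SCC15 –YBX1 it read 5.90, 4.28 and 4.32, with a log2 change of 0.43 (-0.33 to 1.2). That value rested on replicate 1, and without SCC15 –YBX1 replicate 1 it was -0.10.

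VEGFC was 1.1, 0.45 and 1.3 log2 CPM in SCC15 –YBX1 (15, 8 and 16 reads), above the 3 SCC15 +YBX1 libraries. Its log2 change was 0.92 (SE 0.29, 95% interval 0.30 to 1.53, unadjusted p = 0.00651 and adjusted p = 1.00, limma). In SCC25 it was 6.31, 6.2 and 6.02 after knockdown, a change of -0.04 (-0.65 to 0.58), and the responses of the lines differed by -0.96 (-1.83 to -0.09, unadjusted p = 0.0335 and adjusted p = 1.00, limma). Against the level in SCC25 the SCC15 values remained low in both groups.

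PDGFA read 6.2, 6.2 and 6.49 in SCC25 –YBX1, below the 3 SCC25 +YBX1 libraries, with pair differences of -0.37, -0.38 and -0.41. In SCC15 the pairs differed by -0.17, 0.18 and -0.20. Members whose libraries did not overlap thus numbered 2 in SCC25 (PDGFA and VEGFA), where 7.31% of all genes did not overlap, and 1 in SCC15 (VEGFC), where 7.04% did not.

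The other members had overlapping libraries before and after knockdown. Log2 changes in SCC25 ran from -0.27 for FGFR1 to 0.61 for FGF2, and in SCC15 from -0.43 for FGFR2 to 0.58 for FGFBP1. FGF2 read 3.46, 3.23 and 3.31 in SCC25 –YBX1, less spread than before, and 3.71, 2.81 and 2.94 in SCC15 –YBX1. FGFR1 read 4.84, 4.78 and 4.81 in SCC15 –YBX1, with an interval of -0.78 to 0.63 for its response. FGFBP1 kept 8, 3 and 3 reads in SCC15 –YBX1 and read 9.37, 10.64 and 9.27 in SCC25 –YBX1.

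The wider pathways were described by 6 lists, whose counts are read against the shares of all genes called: 20.0% higher and 23.6% lower for SCC15 against SCC25, 26.9% and 23.4% for SCC15 against OKF6, and 18.9% and 11.3% for SCC25 against OKF6. Among 16 other receptors and co-receptors, 7 were higher and 5 lower in SCC15 +YBX1 than in SCC25 +YBX1 (median log2 change 0.66, beside -0.01 over all genes). FLT4, the receptor for VEGFC, had 422, 456 and 478 reads in SCC15 +YBX1, 0, 2 and 1 in SCC25 +YBX1 and 0 in each OKF6 library. Taking 3 reads per library as the floor, FLT4 in SCC15 exceeded OKF6 by at least 112-fold. The line with the least VEGFC was the line with the most FLT4 reads. With few reads elsewhere, FLT4 could enter the genes tested only through SCC15, so this pairing is a description. The glypicans GPC4 and GPC3, heparan sulphate carriers of the cell surface, were also higher in SCC15. GPC4 had 196, 185 and 210 reads in SCC15 +YBX1 against 0, 0 and 6 in SCC25 +YBX1. GPC3 had 93, 102 and 163 against 0, 0 and 1. Their fitted log2 changes of 7.16 and 7.10 against SCC25 rest largely on the reads added to zeros. With few reads outside SCC15, both glypicans could likewise enter the genes tested only through that line. They were at least 48.9-fold and 29.2-fold higher than in OKF6 by that floor, as they had no OKF6 read.

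Lower in SCC15 than in SCC25 were the syndecans SDC1 (-4.92) and SDC4 (-4.04) and the basement membrane proteoglycan HSPG2 (-3.57), which carry heparan sulphate as well. The same 3 were lower than in OKF6, by -5.23, -3.70 and -3.99 on the log2 scale. All 16 receptors and co-receptors passed between SCC15 and OKF6, 10 higher and 6 lower, where 26.9% of all genes were higher and 23.4% lower. SCC25 was higher than OKF6 in 6 of the 16 (18.9% of all genes), among them FLT1 (20, 16 and 21 reads against 0 in each OKF6 library, at least 5.56-fold over the floor), FGFR4 (log2 change 4.93) and PDGFRL (8, 8 and 2 reads against 0). It was lower in 1 (11.3% of all genes), the VEGFC co-receptor NRP2 (-2.05, adjusted p = 0.00402, limma). PDGFRA, PDGFRB and KDR were not among the genes tested.

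Of 28 other ligands and carriers, 6 were among the genes tested. FGF9 and FGF13 were higher in SCC15 than in SCC25 (log2 change 4.47 and 4.28), with 12, 7 and 23 reads of FGF9 in SCC15 and 0 in the 6 libraries of SCC25 +YBX1 and OKF6, at least 3.69-fold and 3.4-fold over the floor. FGF9 too could enter the genes tested only through SCC15. For FGF13 there were 73, 50 and 57 reads in SCC15 +YBX1 and 0, 5 and 6 in SCC25 +YBX1. FGF13, like FGF11, is an intracellular relative that does not act as a secreted ligand. FGF11 was lower in SCC15 than in SCC25 (-2.33) and higher in SCC25 than in OKF6 (3.99), and VEGFB was higher in SCC25 than in OKF6 (1.1, adjusted p = 0.0319, limma). FGF5 was lower than OKF6 in both cancer lines (-3.59 in SCC15 and -3.77 in SCC25). These changes rest on few reads, 7, 1 and 7 in SCC15 +YBX1 and 2, 9 and 1 in SCC25 +YBX1, against 69, 36 and 37 in OKF6.

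The feedback inhibitors and ETS factors that MAPK signalling induces were the group with most genes lower in SCC15. Of 10 measured, 7 were lower than in SCC25 and 0 higher, with a median log2 change of -2.67. ETV5 had 3, 2 and 3 reads in SCC15 +YBX1 against 412, 554 and 603 in SCC25 +YBX1, DUSP6, a phosphatase that switches off ERK, had 3, 3 and 10 against 697, 667 and 1047, and ETV4 had 0, 1 and 1 against 156, 118 and 105. No SCC15 +YBX1 library had more than 10 reads of any of them, while FGF2 and FGFR1 did not pass between SCC15 and SCC25. Against OKF6, 7 of 10 were again lower in SCC15 and 1 was higher, IL17RD (3.46, with 24, 26 and 25 reads against 2, 6 and 0). Between SCC25 and OKF6, ETV5 (1.89) and ETV1 (1.88) were higher in SCC25 and SPRED2 (-1.59) was lower. The medium of SCC25 and OKF6 contained EGF, which acts on the same route, and its part in these differences cannot be told apart from the line.

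Of 12 adaptors that couple the receptors to RAS, 3 were lower in SCC15 than in SCC25, near the 23.6% of all genes, and 0 were higher. The 3 were SHC1 (-2.75), HRAS (-1.19) and FRS2 (-0.89), with a median over the list of -0.09. Against OKF6, SHC1 (-2.22), PTPN11 (-1.38) and GAB1 (-1.09) were among 5 lower in SCC15. SCC25 was lower than OKF6 in 3 of 12 (GAB1 -1.65, PTPN11 -1.09 and SOS1 -1.0), where 11.3% of all genes were lower, and was higher in SHC1 (0.53, adjusted p = 0.0388, limma).

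Of 12 proteases and other enzymes that process these ligands or free them from the matrix, 6 were lower in SCC15 than in SCC25 (23.6% of all genes), 1 was higher and 5 did not pass, with a median log2 change of -1.74. MMP9 had 0, 1 and 1 reads in SCC15 +YBX1 against 1024, 1567 and 677 in SCC25 +YBX1, ST14 (matriptase) had 0, 0 and 3 against 477, 426 and 229, and PLAU (urokinase) had 36, 9 and 17 against 5327, 2762 and 5387. All 3 were also lower than in OKF6. The exception was the proprotein convertase PCSK6, higher in SCC15 than in SCC25 (1.13, adjusted p = 0.0445, limma) and without a read in OKF6, where it was at least 41.2-fold below SCC15 and 18.8-fold below SCC25 by the floor of 3 reads. Both cancer lines were higher than OKF6 in MMP2 (5.96 in SCC25 and 3.23 in SCC15) and PLAT (2.33 and 2.56), where MMP2 had 4, 0 and 1 reads in OKF6. SCC15 was also higher in ADAMTS3, a protease that activates VEGFC (3.18, on 3, 16 and 7 reads against 1, 0 and 0). CCBE1, on the same list, was lower in SCC15 than in OKF6 (-3.66) and SCC25 (-2.98). In all, 5 of the list were higher and 5 lower in SCC15 than in OKF6, where 26.9% and 23.4% of all genes were.

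Of 4 regulators of FGFR2 splicing, ESRP1 and ESRP2, which favour the epithelial form, had 8, 0 and 3 and 3, 2 and 2 reads in SCC15 +YBX1 against 490, 421 and 347 and 290, 280 and 226 in SCC25 +YBX1. Their log2 changes were -7.64 and -6.80 (adjusted p = 2.18e-05 and 3.60e-07, limma), and -8.72 and -7.28 against OKF6. RBFOX2 was higher in SCC15 than in SCC25 (0.61, adjusted p = 0.0323, limma) and PTBP1 higher than in OKF6 (0.93, adjusted p = 0.00232, limma). FGFR2 itself did not pass between SCC15 and SCC25, at 0.24 (95% interval -0.55 to 1.04). After YBX1 knockdown, 0 of the 60 other pathway genes passed in either line, with 2 in SCC25 and 3 in SCC15 at an unadjusted p under 0.05 (limma), where 3.09% and 2.32% of all genes stood.

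The genes whose levels over the 15 libraries were most like those of a member were found by Pearson's r, as a description over points that fall into 5 groups. FGFBP1 was closest to the keratins KRT5 and KRT6B (r = 0.995 for each). VEGFC was closest to GRB7 (0.992) and NUAK2 (0.990), PDGFA to ZFP36L1 and PXDN (0.992 each), PDGFB to MELTF (0.970) and PTK2B (0.967) and VEGFA to CEBPB (0.977) and ENTPD2 (0.968). FGFR1 was closest to BCAT1 (0.990) and LIMD2 (0.980), and FGF2 to ROR1 (0.977) and TMEM9 (0.973).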

How the data were processed

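RNA of 15 libraries was measured with QuantSeq 3′ FWD. The authors used Cutadapt for trimming, HISAT2 for alignment (hg38), featureCounts for counts per gene and limma for filtering and normalisation. The deposited values are log2 CPM with 0.5 reads added, in one table for the lines and another for the knockdown, whose 6 shared libraries were equal within 5e-08. Replicates were not pooled. Taking the lowest value of a library as 0 reads returned whole reads (tolerance 0.01) for 100% of values. The strand setting of the counting is not given in the sources used here. In GENCODE v44, no other gene had an exon in the last 500 bases of the Ensembl canonical transcript of a member. For each member, 0 of 86 pieces of 75 bases from there matched a transcript of another gene. Other 3′ ends of the members were not checked.

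Groups were compared on the deposited log2 values with limma 3.58.1 in R 4.3.3 (lmFit, eBayes with a variance trend, two-sided, Benjamini-Hochberg over 12995 genes, threshold 0.05), with all groups of a table in the fit and no block. The code was tested on simulated data. Ratios were tested by exact permutation in scipy 1.17.1, and counting intervals of ratios are exact binomial at 95%. Figures were drawn with matplotlib 3.10.9, and 3′ pieces were mapped with minimap2 2.31. The members, the pathway lists and the tests were chosen with earlier results of these data known. Named genes were the members, YBX1, from each pathway list up to 3 genes per direction and comparison with the largest change among those called without overlap, and for each member with an SD over 1 across libraries the 2 genes with the highest Pearson r, which for FGFR3 are not reported here. Genes marking cell types, those named as not tested, and CCBE1 lie outside that rule.

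Same-numbered libraries before and after knockdown deviated together from their group means over 6497 genes (r = 0.14 to 0.46 in SCC25 and 0.22 to 0.51 in SCC15). Between different lines the same measure ran from -0.16 to 0.26, which overlaps the lower of these values. Differently numbered libraries were not compared, so the pairing by number is not settled. A replicate block was therefore used as an alternative only. The other alternatives were a fit of the compared groups alone, medians set equal, quantiles set equal, a fit with no variance trend, 2 reads added, genes above the first quartile, voom weights on the recovered reads, and each library left out.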

Additional observations from a re-analysis of the deposited data

How the results depend on the processing

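The count of members called stayed within 1.5 times its value under every alternative run. Leaving out a library gave 5 to 6 members for SCC15 against SCC25, 9 to 10 for SCC15 against OKF6, 4 to 6 for SCC25 against OKF6 and 0 in the knockdowns. The other alternatives gave 6, 8 to 9, 5 to 7 and 0. Under alternatives that keep all libraries, calls held in 48 of 48, 71 of 71 and 45 of 47 cases for these comparisons, against 33 of 36, 54 of 54 and 27 of 36 when a library was left out, and no called change turned its direction. The replicate block changed no call, with 6, 9 and 6 members called between lines and 0 after knockdown. FGF2 had too few reads to enter the fit of genes above the first quartile. Depth limits PDGFB, VEGFC and FGFBP1 in SCC15 and FGF2 and FGFR1 in OKF6.

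Changes of direction occurred only among differences that did not pass. PDGFB after knockdown was 0.00 in SCC25 with library medians or quantiles equal (0.01 before), and with 2 reads added it was 0.06 in SCC15 and -0.05 for the difference of responses. Leaving out a library gave, for SCC15 against SCC25, -0.01 to 0.37 for FGFR2, -0.04 to 0.47 for FGFR1 and -0.03 to 0.81 for FGF2. In SCC25 after knockdown it gave -0.37 to 0.38 for PDGFB, -0.54 to 0.19 for FGFBP1, -0.11 to 0.04 for VEGFC, -0.58 to 0.13 for FGFR1, -0.35 to 0.80 for FGFR3 and -0.06 to 0.48 for PDGFC. In SCC15 it gave -0.23 to 0.16 for PDGFA, -1.56 to 0.76 for PDGFB, -0.66 to 1.84 for FGFBP1, -0.10 to 0.71 for VEGFA, -0.17 to 0.28 for FGF2 and -0.05 to 0.30 for FGFR3. For the difference of responses it gave -0.75 to 1.57 for PDGFB, -0.25 to 0.29 for PDGFC, -0.23 to 0.58 for VEGFA, -0.52 to 0.63 for FGFR3, -1.94 to 0.56 for FGFBP1 and -0.51 to 0.21 for FGFR1. The cause was not tested.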
